A study of Rattus norvegicus with 15 samples.

Results

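Globin genes and 3 genes that red blood cell precursors express alongside them were followed across 12 rat heart cell libraries. The set holds 8 of the 26276 genes of the count table and was taken by gene symbol: the alpha globin rows Hba2 and Hba-a2, the beta globin rows HBB, Hbb and Hbb-b1, and Ahsp, Epb42 and Alas2. The symbols are spelled as in the table, where HBB and Hbb are separate rows. Rows of 1 globin family are nearly identical in sequence and share reads, so their sum per library is given as well.

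The libraries form 4 groups of 3, and all cells came from Wistar rats. The iCM libraries were made from beating colonies of induced cardiomyocytes that had been grown out of cardiac stem cells. The aCM libraries held cardiomyocytes isolated from 12-week-old hearts, and the nCM libraries cardiomyocytes isolated on postnatal day 1 to 2. The CSC libraries came from 3 cultures of undifferentiated cardiac stem cells of 1 clone. The labels do not say whether the iCM grew from that clone, or how many animals or cultures stand behind the iCM, aCM and nCM libraries.

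Haemoglobin, the oxygen carrier of red blood cells, is built from alpha and beta globin chains that each hold a haem group. Red cell precursors switch the globin genes on at very high levels under the transcription factors GATA1, TAL1 and KLF1, and young red cells keep globin RNA for a while after they have lost their nucleus. Ahsp encodes a chaperone that binds free alpha globin, Alas2 encodes the erythroid form of the enzyme that starts haem synthesis, and Epb42 encodes protein 4.2, which ties the anion exchanger band 3 to the red cell membrane skeleton. Heart muscle cells store oxygen with another globin, myoglobin, and a heart holds blood, endothelial cells and leukocytes beside its muscle cells.

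RefSeq sequence upstream of the start site was on hand for 5 of the 8 genes (Hba-a2, Hbb, Hbb-b1, Epb42 and Alas2), matched by symbol on the rat build GRCr8. The 250 bases before the start site of the alpha and beta globin genes are shown because these genes moved together through the 12 libraries, with capitals at 4 short motifs searched on both strands: AGATAA and TGATAA (forms bound by GATA1), CACCC (bound by KLF1) and CCAAT. The windows lie at chr10:15829139-15829388 for Hba-a2, chr1:167663722-167663971 for Hbb and chr1:167643521-167643770 for Hbb-b1, all on the minus strand.
Hba-a2: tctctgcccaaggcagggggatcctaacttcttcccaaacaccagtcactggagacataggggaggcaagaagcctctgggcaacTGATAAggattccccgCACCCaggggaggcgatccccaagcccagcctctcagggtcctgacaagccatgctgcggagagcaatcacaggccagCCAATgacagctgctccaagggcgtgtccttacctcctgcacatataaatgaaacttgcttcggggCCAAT
Hbb: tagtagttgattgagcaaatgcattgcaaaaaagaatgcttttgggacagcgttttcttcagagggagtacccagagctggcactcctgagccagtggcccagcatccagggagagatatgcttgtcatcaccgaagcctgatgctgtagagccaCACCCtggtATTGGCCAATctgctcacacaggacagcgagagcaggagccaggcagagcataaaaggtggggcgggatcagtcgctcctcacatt
Hbb-b1: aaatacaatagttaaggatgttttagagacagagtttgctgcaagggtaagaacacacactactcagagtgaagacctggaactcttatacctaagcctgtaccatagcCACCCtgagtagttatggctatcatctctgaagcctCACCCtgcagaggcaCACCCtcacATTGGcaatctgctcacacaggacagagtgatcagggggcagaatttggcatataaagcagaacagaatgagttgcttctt
The Hba-a2 window held TGATAA at -165, CACCC at -149 and CCAAT at -71 and -5, counted in bases from the start site. The Hbb window held CACCC at -95 and CCAAT at -81, and on the opposite strand at -86. In the Hbb-b1 window CACCC stood at -141, -105 and -90, and CCAAT stood on the opposite strand at -81. No 2 of these matches overlapped. Both beta windows shared 61.8% of 259 aligned positions. Of the other windows, that of Alas2 held AGATAA at -136 and that of Epb42 held none of the 4 motifs. Among 33469 RefSeq windows of the same length, 49.2% held CACCC, 34.0% CCAAT, 10.3% AGATAA and 7.97% TGATAA, so a match is a description of these letters and not of binding.

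Library totals ran between 20683016 and 48514794 counts, and 3 counts corresponded to 0.0582 to 0.166 CPM (counts-per-million, with library sizes adjusted by TMM), which covers counting error only. All 8 genes passed the filter on low counts, with 17242 genes tested in all. As a check of the labels, 9 cardiomyocyte marker genes summed to between 6183 and 7126 CPM in iCM, between 93732 and 123520 CPM in aCM, between 2294 and 4658 CPM in nCM and between 5.22 and 50.8 CPM in CSC. One library stood apart for the genes described here: CSC replicate 2 held 8571 globin counts, against 6.83 and 7.50 in CSC replicates 1 and 3. The globin folds of iCM against CSC, the globin sums and the counts of the 8 genes are therefore also given without it. Without it, the globin folds rest on the few counts left in CSC and are no exact folds. Other comparisons with CSC include it unless stated. In libraries of many cells, fewer cells of a type and less RNA per cell cannot be told apart.

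Globin RNA was abundant in iCM and nCM and scarce in aCM and CSC. The 5 globin rows together took 4.06%, 3.40% and 3.59% of all counts in the iCM libraries and 8.12%, 7.85% and 6.03% in the nCM libraries. They took 0.0159%, 0.00389% and 0.00853% in the aCM libraries. In CSC the shares were 1.69e-05%, 0.0177% and 2.12e-05%, so CSC replicate 2 lay above every aCM library and the other CSC libraries below.

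**Figure D1:**
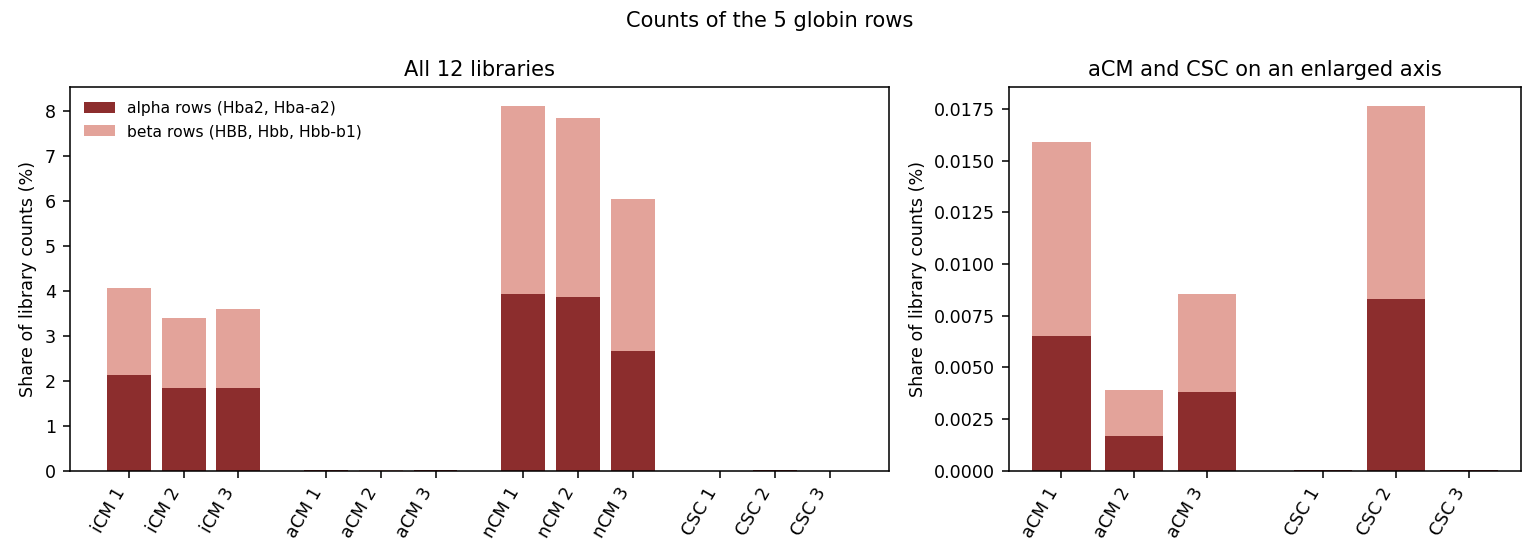
Share of each library's counts, in percent, taken by the 5 globin rows, with the alpha rows below the beta rows in each bar; the right panel repeats aCM and CSC on an enlarged axis. The iCM bars reach 3.40% to 4.06%, below all 3 nCM bars at 6.03% to 8.12%, and CSC replicate 2 at 0.0177% is the only CSC bar that can be seen.

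Both alpha globin rows were far higher in all iCM libraries than in any aCM or CSC library. Hba2 stood at 10025, 8631 and 9182 CPM in iCM, at 26.8, 7.06 and 18.1 CPM in aCM, at 18034, 18255 and 11891 CPM in nCM, and at 0.0558, 47.7 and 0.0986 CPM in CSC. Every iCM library lay above every aCM and CSC library and below every nCM library. Hba-a2, the other alpha row, followed it with 9922, 8596 and 8334 CPM in iCM, 47.5, 12.5 and 25.5 CPM in aCM, 18438, 18361 and 10693 CPM in nCM, and 0.0718, 38.5 and 0.123 CPM in CSC. nCM replicate 3 was the lowest nCM library for both alpha rows.

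Hba2 was higher in iCM than in CSC by 9.18 ± 1.77 (log2 fold change ± SE, adjusted p = 0.000449, edgeR), and Hba-a2 by 9.43 ± 1.72 (adjusted p = 0.000289). Without CSC replicate 2 the fitted values were 17.02 for Hba2 and 16.50 for Hba-a2 (adjusted p = 2.69e-09 and 4.51e-09). Against aCM, the excess in iCM was 9.07 ± 1.76 for Hba2 (adjusted p = 0.000552) and 8.30 ± 1.64 for Hba-a2 (adjusted p = 0.000636). Set against nCM, aCM were lower by 9.86 ± 1.82 on the log2 scale for Hba2 (log2 fold change -9.86, adjusted p = 0.000337). The difference between aCM and CSC was 0.11 ± 1.27 for Hba2 (adjusted p = 0.943) and changed sign under other scalings. Without CSC replicate 2 it was 7.95 and was called (adjusted p = 6.28e-07).

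The beta rows had the same order of groups. HBB stood at 7289, 5917 and 6746 CPM in iCM, at 35.1, 7.78 and 19.9 CPM in aCM, at 18002, 16524 and 13712 CPM in nCM, and at 0.0239, 40.4 and 0 CPM in CSC. Hbb stood at 9352, 7580 and 8694 CPM in iCM, at 62.3, 16.4 and 29.3 CPM in aCM, at 16002, 16804 and 11266 CPM in nCM, and at 0, 43.9 and 0 CPM in CSC. For Hbb, too, no iCM library overlapped a library of another group. Hbb-b1 reached 1608, 1311 and 1503 CPM in iCM, 9.36, 1.502 and 4.85 CPM in aCM, 4777, 4401 and 3514 CPM in nCM, and 0.0120, 12.4 and 0 CPM in CSC.

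Compared with CSC, iCM were higher by 8.94 ± 1.77 for HBB (adjusted p = 0.000570), 9.18 ± 1.83 for Hbb (adjusted p = 0.000580) and 8.44 ± 1.43 for Hbb-b1 (adjusted p = 0.000154). The fitted values were 18.61 for HBB, 21.28 for Hbb and 18.75 for Hbb-b1 without CSC replicate 2 (adjusted p = 5.20e-09, 1.22e-08 and 3.49e-08). The same rows were higher in iCM than in aCM by 8.31 ± 1.73, 7.89 ± 1.73 and 8.14 ± 1.42 (adjusted p = 0.000933, 0.00138 and 0.000231). Compared with nCM, aCM had log2 fold changes of -9.59 ± 1.82 for HBB, -8.67 ± 1.79 for Hbb and -9.66 ± 1.51 for Hbb-b1 (adjusted p = 0.000430, 0.000825 and 8.08e-05).

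The chaperone gene Ahsp, unlike the globins, had high levels in all 3 stem cell libraries. It stood at 27.7, 23.1 and 23.8 CPM in iCM, at 0.458, 0.0149 and 0.111 CPM in aCM, at 45.1, 64.6 and 44.9 CPM in nCM, and at 21.3, 69.0 and 74.3 CPM in CSC. CSC replicates 1 and 3, with almost no globin counts, thus had 890 and 2513 Ahsp counts. The iCM libraries overlapped the CSC libraries and lay below every nCM library, while the aCM level rests on rounded counts of 9, 0 and 2.

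Ahsp was lower in aCM than in CSC by 8.19 on the log2 scale (log2 fold change -8.19 ± 0.65, adjusted p = 6.74e-08) and lower in aCM than in nCM (-8.10 ± 0.65, adjusted p = 1.68e-07). The iCM level was above that of aCM by 7.05 ± 0.66 (adjusted p = 8.28e-07) and under that of CSC (-1.14 ± 0.38, adjusted p = 0.0177). This last call was lost without CSC replicate 2 or 3 or iCM replicate 2 or 3 (log2 fold changes of -0.94, -0.87, -1.09 and -1.11, with adjusted p of 0.0579, 0.0694, 0.0556 and 0.0528). Between nCM and CSC the log2 fold change was -0.09 ± 0.38 (adjusted p = 0.837).

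In the RefSeq annotation Ahsp overlaps the protein-coding gene Rusf1, which stands in the count table as RGD1310127. It had 1443, 1800 and 1514 counts in iCM, 279, 317 and 258 in aCM, 1308, 1070 and 1286 in nCM, and 2769, 3907 and 2667 in CSC. RGD1310127 was lower in iCM than in CSC (-1.24, adjusted p = 2.80e-07) and lower in aCM than in nCM (-1.01, adjusted p = 2.87e-06). Unlike those of Ahsp, its counts, not adjusted for library size, were higher in every iCM library than in every nCM library. In aCM its 279, 317 and 258 counts stood beside rounded Ahsp counts of 9, 0 and 2. A strand setting for the counting was not given in the sources used here, so reads of Ahsp and of its overlapping neighbour cannot be told apart, and the part of Rusf1 in the Ahsp counts was not tested.

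Alas2, the haem synthesis enzyme of red cells, had the group order of the globins. Its levels were 164, 140 and 147 CPM in iCM, 2.24, 0.779 and 1.43 CPM in aCM, 280, 221 and 174 CPM in nCM, and 0.908, 1.74 and 0.852 CPM in CSC. Each iCM library lay below each nCM library and far above all aCM and CSC libraries, and the aCM and CSC libraries overlapped. Alas2 was higher in iCM than in CSC by 6.98 ± 0.33 (adjusted p = 7.67e-10) and than in aCM by 6.69 ± 0.34 (adjusted p = 3.82e-09), and lower in aCM than in nCM (-7.27 ± 0.34, adjusted p = 1.39e-09). CSC replicate 2 was the highest CSC library for Alas2 as well, at 1.74 CPM beside 0.908 and 0.852 CPM.

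Epb42, the membrane skeleton gene, was the one gene of the set followed here that separated all 4 groups. It stood at 10.7, 10.2 and 9.27 CPM in iCM, at 1.76, 1.51 and 1.38 CPM in aCM, at 14.1, 19.2 and 20.9 CPM in nCM, and at 0.473, 0.543 and 0.587 CPM in CSC. No libraries of different groups overlapped. The share of all genes tested that separate all 4 groups was not counted, so how unusual this is remains unknown. Between iCM and nCM alone, 52.9% of all genes tested had libraries that did not overlap. Epb42 was higher in aCM than in CSC (1.54 ± 0.22, adjusted p = 2.45e-05). It was higher in iCM than in CSC by 4.23 ± 0.20 (adjusted p = 8.97e-10) and than in aCM by 2.69 ± 0.19 (adjusted p = 6.45e-08), and below the nCM level (-0.85 ± 0.16, adjusted p = 0.00192).

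**Figure D2:**
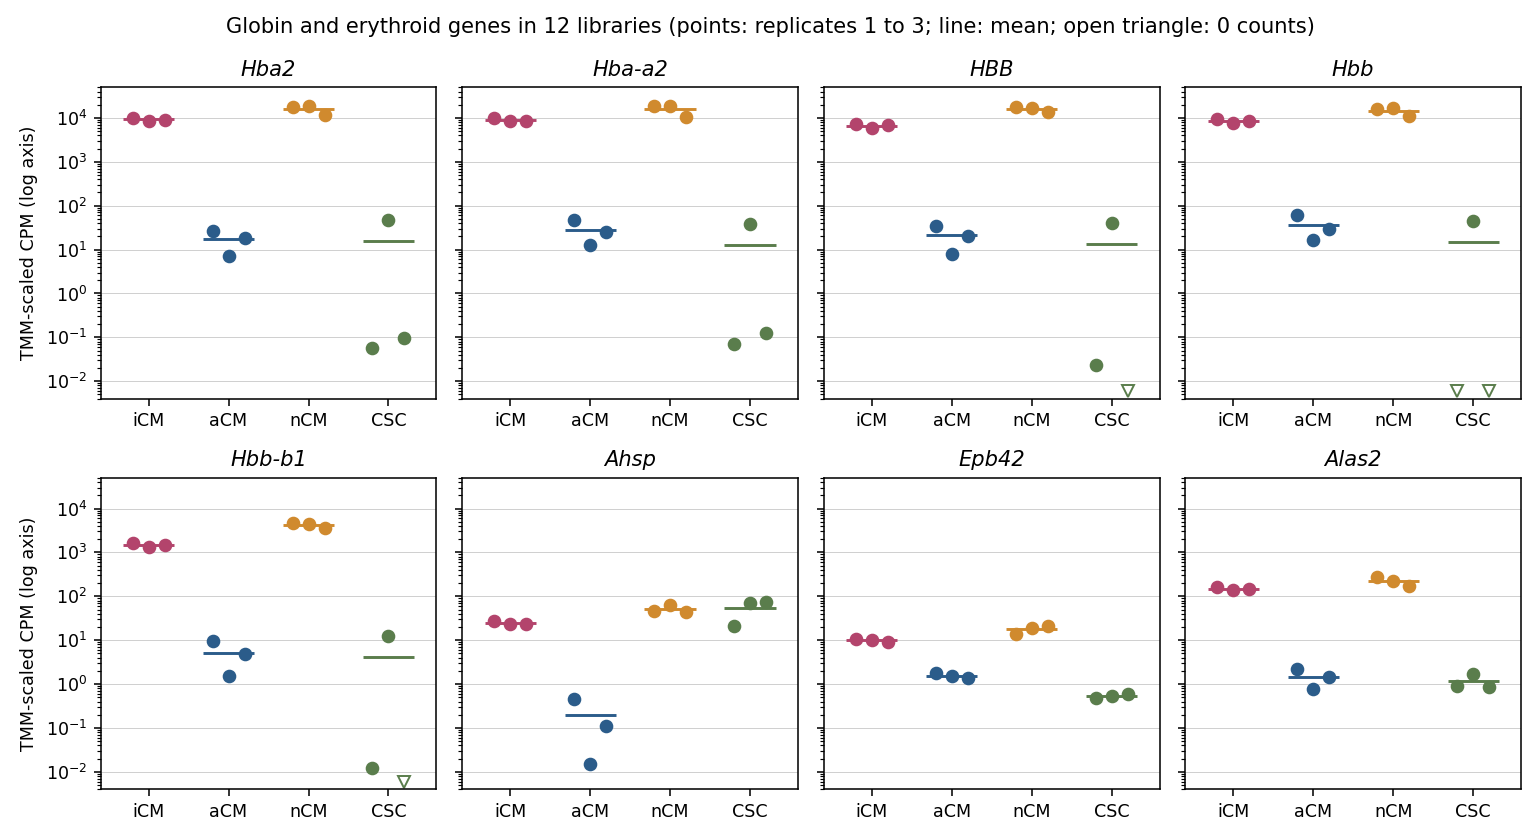
TMM-scaled CPM on a log axis of the 8 genes in the iCM, aCM, nCM and CSC libraries; points are replicates 1 to 3, lines are means and open triangles stand for 0 counts. Globin levels in iCM and nCM lie orders of magnitude above those in aCM, CSC replicate 2 lies apart from the other CSC libraries for the globins, and the Ahsp levels of CSC overlap those of iCM and nCM.

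Against CSC, iCM had 7 of the 8 genes higher and Ahsp lower, where 66.0% of all genes tested were called in either direction (34.8% higher and 31.2% lower). The median log2 fold change was 8.69 over the 8 genes and 0.08 over all genes. Summed, the globins were higher by 9.17 ± 2.00 (adjusted p = 0.00115). Without CSC replicate 2 the same 7 genes were higher (background 61.7% called and 32.5% higher), and the fitted globin sum gave 17.39 (adjusted p = 4.51e-09), a value that rests on the 6.83 and 7.50 counts left in CSC and is no exact fold.

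Between nCM and CSC, 7 genes were higher and Ahsp was not called, against 72.1% of all genes called (36.7% higher). The globin sum differed by 10.11 ± 2.07 (adjusted p = 0.000625), and Epb42 and Alas2 by 5.08 ± 0.21 and 7.56 ± 0.34 (adjusted p = 1.71e-10 and 3.68e-10). Without CSC replicate 2 the fitted globin sum was 18.33 (adjusted p = 2.75e-09) and the count was 7 as well, where 68.2% of genes were called and 34.4% were higher.

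Adult cardiomyocytes and stem cells were separated only by Epb42, higher in aCM, and Ahsp, lower in aCM, so that 2 of 8 genes were called where 78.0% of all genes were (43.2% higher and 34.8% lower). The globin sum was 181, 45.2 and 97.7 CPM in aCM and 0.163, 183 and 0.222 CPM in CSC, a log2 difference of 0.82 ± 1.42 (adjusted p = 0.607). This rests on CSC replicate 2: without it, 7 of 8 genes were called, 6 of them higher, against 74.5% of all genes and 40.8% higher, and the globin sum gave 9.05 (adjusted p = 1.76e-07). Alas2 was the gene not called in that fit (0.71, adjusted p = 0.105).

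All 8 genes were higher in iCM than in aCM (background 63.1% in either direction, 33.0% higher), with a median log2 fold change of 8.02 over the 8 genes and 0.00 over all genes. The globin sum was higher by 8.35 ± 1.93 (adjusted p = 0.00198). All 8 were likewise lower in aCM than in nCM (background 62.7%, 31.9% lower), by a median of -8.90 over the 8 genes and -0.01 over all genes. The globin sum there gave -9.30 ± 2.01 (adjusted p = 0.00115).

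iCM and nCM both had high globin levels, and for each of the 8 genes every iCM library lay below every nCM library. Over all genes tested, 52.9% had iCM and nCM libraries that did not overlap, and 24.7% had all iCM libraries lower. In the fit of all 12 libraries only Epb42 was called, lower in iCM, where 31.4% of genes were called and 13.1% lower. The globin sum had a log2 fold change of -0.94 ± 1.41 (adjusted p = 0.641), Ahsp gave -1.05 ± 0.38 (adjusted p = 0.0518) and Alas2 -0.58 ± 0.24 (adjusted p = 0.0825). The median over the 8 genes was -0.83, against -0.02 over all genes.

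That count differed with the libraries in the fit, which also set the filter, the scaling and the estimate of the spread. With iCM and nCM alone in the fit, all 8 genes were lower in iCM, where 18.6% of genes were called lower and 39.5% in either direction. The log2 fold changes were then -0.81 for Hba2, -0.84 for Hba-a2, -1.29 for HBB, -0.80 for Hbb, -1.54 for Hbb-b1, -1.06 for Ahsp, -0.86 for Epb42 and -0.60 for Alas2, with adjusted p between 0.000165 and 0.02001. The globin sum gave -0.95 (adjusted p = 0.0100). With all groups but without CSC replicate 2, 5 of the 8 genes were lower in iCM (background 31.5% called and 13.3% lower).

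Ratios of counts within a library do not depend on how libraries are scaled; they are not corrected for gene length and are compared only between libraries. The alpha rows had 1.09, 1.16 and 1.03 times the counts of the beta rows in iCM, 0.695, 0.764 and 0.807 times in aCM, and 0.940, 0.971 and 0.793 times in nCM. All iCM libraries lay above all aCM and nCM libraries, and aCM and nCM overlapped. The 3 groups differed (exact permutation test over 1680 arrangements, two-sided, p = 0.00714, adjusted p = 0.0143 over 4 ratios, n = 3 each), a call that was lost without aCM replicate 1 (adjusted p = 0.0571).

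Alas2 amounted to 0.429%, 0.436% and 0.427% of the globin counts in iCM, to 1.25%, 1.77% and 1.495% in aCM, and to 0.373%, 0.297% and 0.340% in nCM. The groups did not overlap (exact permutation test, p = 0.00357, the smallest this design can give, adjusted p = 0.0143). The aCM shares rest on rounded Alas2 counts of 43, 17 and 26. Alas2 was not called between aCM and CSC (0.29 ± 0.37, adjusted p = 0.484, edgeR). CSC replicates 1 and 3 held 0.908 and 0.852 CPM of Alas2 with almost no globin counts. Whether Alas2 RNA found without globin RNA raises the aCM share was not tested. Epb42 amounted to 0.0280%, 0.0318% and 0.0269% of the globin counts in iCM, to 0.985%, 3.40% and 1.44% in aCM, and to 0.01875%, 0.0258% and 0.0410% in nCM, so that iCM and nCM overlapped and aCM stood above both (exact permutation p = 0.0286, adjusted p = 0.0381, and 0.0571 without aCM replicate 1). Its aCM shares rest on rounded Epb42 counts of 34, 34 and 25.

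Ahsp amounted to 0.0726%, 0.0722% and 0.0690% of the globin counts in iCM, to 0.267%, 0.0824% and 0.142% in aCM, and to 0.0599%, 0.0869% and 0.0879% in nCM. The aCM shares rest on Ahsp counts of 8.84, 0.333 and 2.00, with 0.5 added to both sides of each ratio. For aCM replicate 2 the added 0.5 exceeds the Ahsp count itself, so its share and its place beside iCM and nCM are not measured. The exact permutation test, which includes these shares, gave p = 0.0893 (adjusted p = 0.0893). In CSC replicate 2, the CSC library with enough globin counts for a ratio, alpha over beta was 0.891, and Alas2 and Ahsp amounted to 0.956% and 37.8% of the globin counts. The Alas2 share of that library lay between those of iCM and aCM, and its alpha over beta ratio lay within the nCM range.

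**Figure D3:**
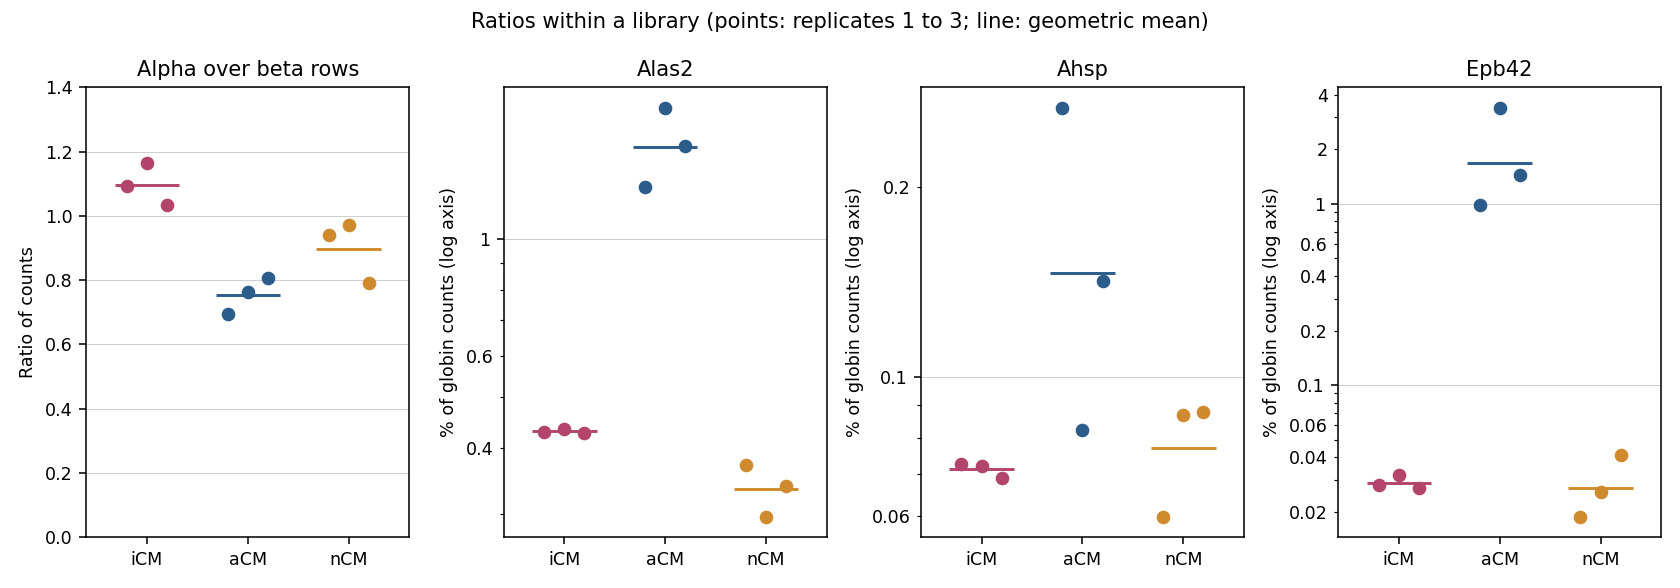
Ratios of counts within each iCM, aCM and nCM library: alpha over beta rows on a linear axis, and Alas2, Ahsp and Epb42 as percent of the globin counts on log axes; points are replicates and lines geometric means. The Alas2 share separates the 3 groups, with aCM at 1.25% to 1.77% above iCM at 0.427% to 0.436% and nCM at 0.297% to 0.373%. The aCM points rest on few counts, rounded 43, 17 and 26 for Alas2 and 9, 0 and 2 for Ahsp.

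The make-up of the globin counts, looked at after the levels were known and given without a test, also differed between the groups. HBB had 0.779, 0.781 and 0.776 times the counts of Hbb in iCM, 0.564, 0.476 and 0.679 times in aCM, and 1.13, 0.983 and 1.22 times in nCM. Hbb-b1 had 0.172, 0.173 and 0.173 times the counts of Hbb in iCM, 0.151, 0.0931 and 0.166 times in aCM, and 0.299, 0.262 and 0.312 times in nCM. The iCM libraries differed from one another by less than 1 in 100 in both ratios and overlapped neither of the other groups. Of the summed globin counts, Hbb-b1 made up 4.09% to 4.36% in iCM, 3.32% to 5.17% in aCM, and 5.92% to 6.88% in nCM. Hba2 made up 26.2% to 26.9% in iCM, 14.8% to 18.6% in aCM, and 23.3% to 24.6% in nCM. In CSC replicate 2, Hbb-b1 had 0.283 times and HBB 0.921 times the counts of Hbb, the first within the nCM range and the second between iCM and nCM. Since these rows share reads, the split between them also depends on how the counting program assigned shared reads.

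**Figure D4:**
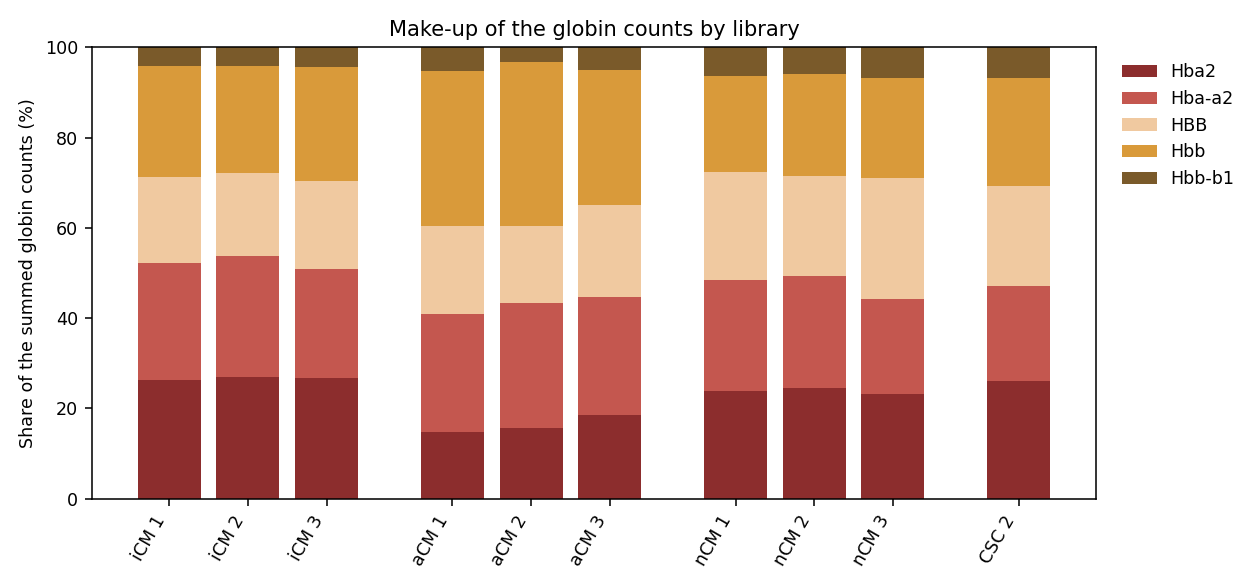
Share of the summed globin counts, in percent, of each of the 5 rows in the 10 libraries with enough globin counts (CSC replicates 1 and 3 are left out). The 3 iCM bars are nearly alike, Hba2 is smallest in aCM (14.8% to 18.6%), and Hbb-b1 is larger in nCM (5.92% to 6.88%) than in iCM (4.09% to 4.36%).

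Other genes of red cell development were read from lists chosen with earlier results of these data known. Their counts stand beside the shares of all genes called, which were 34.8% higher and 31.2% lower in iCM against CSC, 31.4% in either direction and 13.1% lower in iCM against nCM, 33.0% higher in iCM against aCM, and 62.7% in either direction and 31.9% lower in aCM against nCM. Of 5 further globin rows, among them the embryonic type Hbe1 and Hbg1, all 5 were higher in iCM than in CSC, and 4 without CSC replicate 2. Against nCM, 3 of the 5 were lower and 1 higher in iCM. Hbg1 stood at 2.70, 1.36 and 1.77 CPM in iCM, 0.354, 0.172 and 0.139 CPM in aCM, 9.33, 6.27 and 3.57 CPM in nCM, and 0, 0.107 and 0 CPM in CSC. Hbe1 stood at 4.78, 3.502 and 4.27 CPM in iCM, against 14.3, 10.1 and 3.28 CPM in nCM (-1.14, adjusted p = 0.0410). The 5 rows summed to between 8.51 and 11.9 CPM in iCM and between 15.2 and 28.5 CPM in nCM, and their groups did not overlap.

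Among 14 rows of erythroid regulators (34.8% of all genes higher in this comparison), of which GATA1 and Gata1 are 2 rows for 1 factor, 10 were higher and 2 lower in iCM than in CSC, with a list median of 1.87 and a median of 0.08 over all genes. Without CSC replicate 2, 9 were higher and 2 lower. KLF1, the CACCC-binding activator of beta globin, was read from Klf1 at 5.48, 4.13 and 6.15 CPM in iCM, 0.466, 0.657 and 0.441 CPM in aCM, 8.31, 9.28 and 8.39 CPM in nCM, and 0.463, 0.345 and 0.410 CPM in CSC. The row GATA1, for the master regulator of red cells, stood at 1.43, 1.54 and 1.23 CPM in iCM, 0.233, 0.134 and 0.139 CPM in aCM, 2.25, 2.23 and 1.82 CPM in nCM, and 0.0723, 0.0533 and 0.0444 CPM in CSC. Against nCM, 7 of the 14 rows were lower and none higher in iCM, where 13.1% of all genes were lower, among them Klf1 (-0.72 ± 0.19, adjusted p = 0.0114), the globin locus activator Nfe2 (-0.80 ± 0.17, adjusted p = 0.00313) and Lmo2, a partner of TAL1 and GATA1 (-0.77 ± 0.16, adjusted p = 0.00346). Compared with nCM, aCM had 11 rows lower and 3 higher, with 31.9% of all genes lower, and the list median was -2.09. The 3 higher were Tfrc, Slc11a2 and Bcl11a. Those 3 were also lower in iCM than in aCM, and 8 rows were higher. Mean Tfrc was 48.9 CPM in iCM, 293 in aCM, 64.8 in nCM and 129.6 in CSC. Tfrc and Slc11a2 were the 2 rows lower in iCM than in CSC. Tal1 was not called between iCM and aCM (adjusted p = 0.808, edgeR). The list summed to 215 to 240 CPM in iCM, 397 to 545 in aCM, 291 to 311 in nCM and 218 to 279 in CSC.

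Red cell membrane genes did not share 1 pattern. The blood group gene Rhd stood at 13.4, 11.4 and 13.1 CPM in iCM, 0.0880, 0.228 and 0.0623 CPM in aCM, 22.95, 19.9 and 22.92 CPM in nCM, and 0.107, 0.291 and 0.264 CPM in CSC. Slc4a1, which encodes band 3, stood at 138, 110 and 119 CPM in iCM, 5.21, 53.2 and 48.0 CPM in aCM, 128.5, 214 and 222 CPM in nCM, and 0.610, 0.907 and 0.548 CPM in CSC. The spectrin gene Sptb and the ankyrin gene Ank1 were instead lower in iCM than in aCM (-3.17 ± 0.15 and -2.16 ± 0.18, adjusted p = 2.53e-09 and 2.38e-07). Of the 14 listed, 3 were higher and 4 lower in iCM than in nCM, where 3147 of 17242 genes tested were higher and 2265 lower.

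Genes of haem synthesis outside Alas2 did not show the order of the globins. Of 12, 5 were higher and 3 lower in iCM than in CSC, a share near the 66.0% of all genes called there. Only 2 were higher and none lower in iCM than in nCM, below the 31.4% of all genes called. Alas1, the form of the enzyme used by other tissues, stood at 63.3, 57.6 and 59.0 CPM in iCM, 386, 403 and 328 CPM in aCM, 63.2, 56.8 and 44.8 CPM in nCM, and 18.5, 10.8 and 17.9 CPM in CSC. Compared with nCM, aCM had 9 of the 12 higher and 1 lower, where 5316 of 17242 genes tested were higher and 5499 lower. Among red cell enzymes, the carbonic anhydrase gene Ca2 was under the nCM level in iCM (-1.06 ± 0.31, adjusted p = 0.0194) and the biliverdin reductase row BLVRB was above it (0.47 ± 0.10, adjusted p = 0.00322). The enzyme list of 8 genes also holds the blood group gene Rhd, which is no enzyme. Of the 8, 1 was higher, 2 (Ca2 and Rhd) were lower and 5 were not called in iCM against nCM. Rhd is also among the 7 that were higher in iCM than in CSC.

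Of other cell markers, 11 of 12 leukocyte, 7 of 9 neutrophil and 4 of 8 endothelial genes were lower in iCM than in nCM. So were 3 of 11 platelet genes, where 13.1% of all genes were lower. No leukocyte gene was higher in iCM than in nCM, and their summed level was 114 to 132 CPM in iCM, 126 to 179 CPM in aCM, 293 to 451 CPM in nCM and 9.49 to 12.6 CPM in CSC. No neutrophil gene was higher in iCM than in nCM either, with sums of 77.7 to 95.9 CPM in iCM, 2.86 to 3.07 CPM in aCM, 123 to 280 CPM in nCM and 1.17 to 2.37 CPM in CSC. No platelet gene was higher in iCM than in nCM, next to 31.4% of all genes called in either direction and 13.1% lower. The platelet list summed to 51.1 to 53.4 CPM in iCM, 17.8 to 30.7 CPM in aCM, 69.3 to 73.4 CPM in nCM and 4.09 to 6.19 CPM in CSC. Endothelial genes summed to 1810 to 2118 CPM in iCM, 1357 to 1971 CPM in aCM, 2650 to 3237 CPM in nCM and 67.8 to 86.4 CPM in CSC, and all 8 were higher in iCM than in CSC. No listed marker was at 0 in all libraries of a group, and the part of these cell types in the globin results was not tested.

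The leukocyte and endothelial sums in aCM were near those of iCM, while globin and neutrophil RNA in aCM was not. The platelet sum was lower in aCM, but gene by gene the platelet list showed no common direction. Of its 11 genes tested, 1 was higher, 2 were lower and 8 were not called in iCM against aCM, with a median of 0.01. With total count scaling 1 was higher and 0 lower. All 11 were higher in aCM than in CSC, where 43.2% of all genes were. Of the 12 leukocyte genes, 3 were lower and none higher in iCM than in aCM, a count that was 0 lower and 1 higher with total count scaling. Of all 17242 genes tested, 5698 were higher and 5190 lower in that comparison. In contrast 7 of 9 neutrophil genes were higher and none lower in iCM than in aCM, among them S100a9, with 46.4, 35.4 and 39.5 CPM in iCM and 0.155, 0.336 and 0.494 CPM in aCM (6.90 ± 0.50, adjusted p = 7.94e-08). In the opposite direction, 4 of 9 cardiomyocyte genes were higher and none lower in iCM than in nCM, where 3147 of 17242 genes tested were higher. With iCM and nCM alone in the fit all 9 were higher, and 7 of the 8 endothelial genes were lower instead of 4. That fit called 3530 of 16871 genes higher and 3131 lower.

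**Figure D5:**
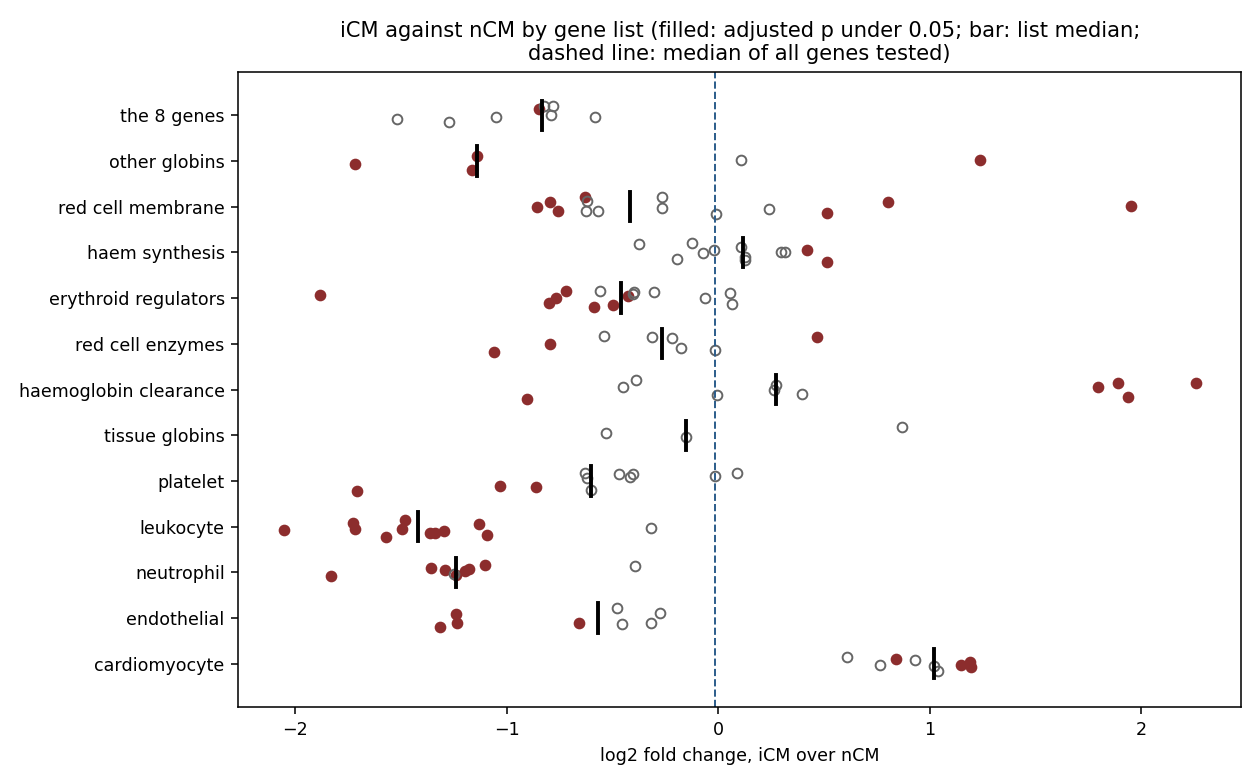
Log2 fold changes of iCM over nCM for the 8 genes and for the listed genes of each kind in the fit of 12 libraries; each point is a gene, filled where the adjusted p is under 0.05, bars are list medians and the dashed line is the median of all genes (-0.02). Leukocyte and neutrophil medians lie at -1.42 and -1.24, the median of the 8 genes at -0.83 and that of cardiomyocyte genes at 1.02.

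Haemoglobin clearance genes take up and break down haemoglobin and its iron. Of 11, 4 were higher and 1 lower in iCM than in nCM. Of all 17242 genes tested, 3147 were higher and 2265 lower there. Haptoglobin, the plasma protein that binds free haemoglobin, was read from Hp at 27.7, 17.7 and 18.4 CPM in iCM, 3.32, 2.87 and 1.34 CPM in aCM, 7.29, 7.44 and 3.66 CPM in nCM, and 2.40, 2.04 and 2.64 CPM in CSC. Its receptor gene Cd163 was below the nCM level in iCM (-0.90 ± 0.31, adjusted p = 0.0436). The haem transporter gene Slc48a1 stood at 102, 101 and 89.5 CPM in iCM, against 21.35, 19.4 and 20.6 CPM in nCM (2.26 ± 0.10, adjusted p = 1.16e-08).

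Myoglobin (Mb), the globin of muscle, had another order of groups, with 703, 604 and 660 CPM in iCM, 8163, 8863 and 8741 CPM in aCM, 405, 396 and 276 CPM in nCM, and 3.47, 1.00 and 0.192 CPM in CSC. It was lower in iCM than in aCM (-3.71 ± 0.53, adjusted p = 4.26e-05), and its difference between iCM and nCM was 0.87 ± 0.48 (adjusted p = 0.186).

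The genes whose centred log2 profiles over the 12 libraries lay nearest that of the summed globins were the growth factor gene Igf2, a row labelled Mir675, the elastin gene Eln, the slow skeletal troponin gene Tnni1 and the fibrillin gene Fbn2, with root mean square differences of 2.04, 2.26, 2.65, 2.70 and 2.72 log2 units, against a median of 6.58 over genes. Igf2 stood at 4131, 3565 and 3809 CPM in iCM, 57.2, 52.0 and 69.2 CPM in aCM, 5505, 4695 and 3925 CPM in nCM, and 0.577, 14.7 and 0.853 CPM in CSC. CSC replicate 2 was the highest CSC library for Igf2 and for the summed globins. Its levels were 0.384% and 0.524% of the iCM means, and 0.313% and 0.273% of the nCM means. It was highest for Mir675, Eln, Tnni1 and Fbn2, at 0.248% to 0.318% of the iCM and 0.256% to 0.538% of the nCM means. These genes were picked by a likeness that includes that library. Alas2 in that library stood at 1.16% of the iCM mean and 0.7725% of the nCM mean.

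Nearest to Alas2 were the neutrophil genes S100a8 and Ngp, the imprinted gene Mest, Stfa2 and Rhd, at 0.61, 0.67, 0.71, 0.75 and 0.80 log2 units, against a median of 3.65. S100a8 stood at 21.4, 17.7 and 23.1 CPM in iCM, 0.104, 0.202 and 0.114 CPM in aCM, 69.4, 51.7 and 25.95 CPM in nCM, and 0.0718, 0.373 and 0.0296 CPM in CSC. Mest stood at 360, 302 and 319 CPM in iCM, 4.35, 2.85 and 5.14 CPM in aCM, 461, 511 and 346 CPM in nCM, and 1.855, 5.595 and 10.1 CPM in CSC.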

How the data were processed

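For 12 libraries the table deposited by the authors holds estimated counts per Ensembl gene of the rat, 88.9% of which are not whole (tolerance 0.01), and beside them log2 values that were divided by 1 factor per library and centred per gene, as read from the values; these served only for the authors' factors. A second deposited table holds estimated counts for clone cCSC3 and, for cCSC1 and cCSC2, a count-like signal whose making is not stated. The submitters' processing notes name DESeq; aligner, counting program, strand setting and genome build were not given in the sources used here. Per the labels' protocols, ribosomal RNA was removed and libraries were primed randomly.

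Counts were rounded, genes kept by edgeR's filterByExpr (minimum count 10; 17242 of 26276 genes) and scaled by TMM. One model held all 12 libraries, and each of 6 contrasts was tested by edgeR's quasi-likelihood F-test, adjusted by Benjamini-Hochberg over all genes at 0.05. The test itself gives no SE. Each SE after ± is an approximation, the absolute log2 fold change divided by the square root of F. The globin rows were also summed before fitting. Levels are TMM-scaled CPM of unrounded counts, shares are of library totals, and ratios used a pseudocount of 0.5. The test was also run on simulated counts with the same spread for every gene and no outlying library. That run therefore does not cover the spread of the globin counts between CSC libraries. Versions were R 4.3.3, edgeR 4.0.16, DESeq2 1.42.0, Python 3.11.15 and scipy 1.17.1. The members, 12 gene lists (123 symbols, 116 identifiers matched) and the rule for named genes (the 8 genes, any listed gene, and the 5 genes nearest the globin sum and nearest Alas2) were chosen with earlier results of these data known. Globin symbols not matched were Hba1, Hba-a1, Hba-a3, Hbq1, Hbb-b2 and Hbb-bs; 2 identifiers carry the symbols GATA1 and Gata1. No identifier matched RefSeq's table by Ensembl ID. The labels call the CSC libraries separate cultures; for the other groups p-values measure the spread between libraries, which may be technical. The closest pair (iCM replicates 2 and 3) had a median chi-square of 1.72 per gene, against 0.455 by chance, so none was counted as a duplicate. Alternatives were other scalings, filters, DESeq2, fits of 2 groups, a replicate block and leaving out libraries.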

Additional observations from a re-analysis of the deposited data

Results flagged for a closer look

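The clone table lies outside the comparisons above and holds 7 of the 8 genes, without Hbb, in 1 library per clone. Each value below was above the level of 3 counts, which is what flagged it. Levels are CPM of the column total.

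The 4 globin rows summed to 15.0 CPM for clone cCSC1, 17.2 CPM for cCSC2 and 0.436 CPM for cCSC3, next to 0.169 in the fourth clone column, which repeats CSC replicate 1. For Ahsp the clones had 36.5 (cCSC1), 23.3 (cCSC2) and 50.5 CPM (cCSC3). Alas2 stood at 1.37, 1.77 and 0.272 CPM, and Epb42 at 0.599, 0.706 and 0.310 CPM, in the same order of clones. How the cCSC1 and cCSC2 columns were made is not stated, so their levels and those of cCSC3 are not on a scale known to be the same.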

How the results depend on the processing

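For the counts of called genes, the globin sums and the ratios, 266 alternative values kept direction and side of the threshold or, for a count, stayed within 1.5 times; 14 counts moved further, 4 values passed the threshold that had not and 2 no longer did. The count for iCM against CSC was 7 to 8 when libraries were left out, since Ahsp lost its call. The count of the 8 genes called for iCM against nCM was 2 with total count scaling, with scaling that leaves out the globin rows and with a filter of 1 CPM in 3 libraries, 8 with only those groups in the fit, and 1 to 5 when libraries were left out in turn. For aCM against CSC it was 2 to 7 when libraries were left out, and the globin sum 0.21 to 9.05. The globin sum of iCM against nCM was -0.95 with those groups alone. DESeq2 gave no adjusted p for Hba2, Hba-a2 and Hbb or for the globin sum; of the 5 genes with one it called 5 for iCM against CSC, 4 for nCM against CSC, 5 for iCM against aCM and 5 for aCM against nCM.

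Values not called with all libraries that changed sign under an alternative were Hba2 in aCM against CSC (-0.0433 with RLE and -0.0367 with total count scaling, -0.11 with the authors' factors, -0.0703 without the globin rows, and -0.48 to 7.95 over libraries left out), Hbb-b1 (-0.44 to 10.60) and Alas2 (-0.15 to 0.71) in the same comparison (the highest values of Hba2 and Hbb-b1, without CSC replicate 2, were called), and Ahsp in nCM against CSC (0.0893 with total count scaling, and -0.48 to 0.18 over libraries left out). The adjusted p of the Ahsp ratio was 0.0238 with a pseudocount of 1. With libraries left out it was 0.0357 to 0.168 for Ahsp, 0.00952 to 0.0571 for alpha over beta and 0.00714 to 0.0571 for Epb42. The cause was not tested.

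Total count scaling moved the median of all genes by 0.28 in iCM against aCM and by -0.34 in aCM against nCM, and the share of called genes that were higher to 66.2% and 33.6%, from 52.3% and 49.2%. Of the listed genes, the called gene Fech changed sign in aCM against nCM under total count scaling and no other called gene did under the 4 other scalings, which were applied to the lists after the data were seen.

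Deviations from the group means had correlations of -0.199 to 0.0737 between same-numbered libraries, and of -0.0970 to 0.181 between libraries of other numbers. No pairing by number was seen, but correlations from 3 libraries a group cannot exclude one. With the replicate block the counts of called genes were 8, 2, 7, 1, 8 and 8 for iCM, aCM and nCM against CSC, iCM against nCM and aCM, and aCM against nCM, and the globin sum of iCM against CSC was 10.36. Globin levels in CSC replicates 1 and 3 lie near the limit that 3 counts set, so folds against them are limited by depth.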
